A study of Mus musculus with 12 samples.

Results

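The genes described are 10 components of the machinery that copies nuclear DNA: Pola1, Pola2, Prim1 and Prim2 of the DNA polymerase alpha-primase complex, Pold1 and Pold2 of DNA polymerase delta, Pole and Pole2 of DNA polymerase epsilon, the sliding clamp Pcna, and Gins1 of the GINS complex. They were taken by gene symbol from a table of 24421 genes, and all 10 were found. Each passed the low-count filter in every comparison, and read counts for single members ran from 14 (Gins1, shElp3 RNA B) to 6949 (Pcna, control footprints B).

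At a replication fork the polymerase alpha-primase complex lays down a short RNA-DNA primer, after which polymerase epsilon extends the leading strand and polymerase delta the lagging strand. PCNA is the ring that encircles DNA and tethers polymerases to it, and GINS joins CDC45 and the MCM ring to form the helicase that unwinds the duplex. Many of these genes are targets of E2F transcription factors, and their mRNAs are more abundant in cycling cells than in resting cells.

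Total RNA depleted of ribosomal RNA and ribosome-protected fragments (RPF, or footprints: the pieces of mRNA that a ribosome shields from nuclease) were sequenced from B16 mouse melanoma cells grown in DMEM with serum. All cells had been transduced with shRNA lentivirus, with a control insert that has no relevant target (shControl) or with 1 insert directed at Elp3 (sh309, here shElp3). Elp3 encodes the catalytic part of the Elongator complex, which starts the modification of the wobble uridine of a set of tRNAs. The 4 groups, control RNA, shElp3 RNA, control RPF and shElp3 RPF, held 3 libraries each, lettered A, B and C. The labels use the same letters for RNA and RPF, so each RPF library was set beside the RNA library of its own shRNA and letter. Nothing states that RNA and RPF libraries of a letter came from the same cells. Nor is it stated that the letters are separate transductions, so a p-value here reflects only how much these libraries vary, which may be technical.

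Library totals ran from 7619269 to 16527864 counts. Elp3 itself measured 93.9, 72.1 and 70.0 CPM (counts relative to library size) in control RNA and 41.3, 35.3 and 35.4 in shElp3 RNA (A, B and C), with no overlap (log2 difference -1.08, SE 0.22, edgeR adjusted p = 0.083, and 0.00098 with the letter as a block). Its footprints fell by 0.93 on the log2 scale (SE 0.15, edgeR adjusted p = 0.025). Letter A stood apart in 3 of the 4 groups. The Spearman correlation over genes of A with B and with C was 0.919 and 0.913 in control RNA, against 0.993 for B with C. It was 0.954 and 0.959 against 0.989 in shElp3 RNA, and 0.950 and 0.955 against 0.993 in control RPF. In shElp3 RPF, A did not stand apart (0.992 and 0.983 against 0.988). All 7 melanocyte markers checked were present, and their summed level also lay lower in shElp3 RNA without overlap, at 8820 to 11800 CPM in control and 5860 to 7400 in shElp3. Taken singly, Pmel, Dct, Tyr and, narrowly, Mitf (lowest control 90.9, highest shElp3 90.4 CPM) did not overlap. Tyrp1 (2329 to 3775 CPM in control and 2338 to 3660 in shElp3 RNA), Mlana and Sox10 did overlap. In footprints the summed level was 14500 to 33900 and 11400 to 20300 CPM, which overlapped. Of 7 leukocyte markers 4 had a count in each RNA group, with sums of 7.79 to 22.3 CPM in control and 6.15 to 12.1 in shElp3 RNA. Nearly all of these sums came from Cd68 and Lyz2. Ptprc and Adgre1 had no read in RNA, and Csf1r, Cd3e and Cd79a had at most 7 in any RNA library. Of 6 fibroblast markers 5 had a count in control RNA (summed level 13.1 to 24.4 CPM) and 3 in shElp3 RNA (21.8 to 43.1 CPM). Nearly all of this sum came from Col1a1 and Pdgfra. Dcn had no read in RNA, Col3a1 and Lum had at most 1 in any RNA library, and Col1a2 at most 6. The sum of 5 epithelial markers reached at most 1.38 CPM in RNA. The part of these marker levels in the results was not tested.

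Promoter sequences from RefSeq (GRCm38.p6, the assembly known as mm10) matched 7 of the 10 genes, all but Prim2, Pole and Gins1. Pold2 had 2 start sites, which made 8 promoters. They are shown because all 10 genes lay lower in shElp3 cells and because E2F-type sites and CCAAT boxes are known in promoters of cell cycle genes. The words searched on both strands were TTTCGCGC, TTTGGCGC, TTTCCCGC and TTTGCGCC (E2F-type), CCAAT, and TTTGAA (the CHR element), in the 300 bases from 250 before to 50 after each start. An E2F-type word stood in 3 of the 8 member promoters (Pola1, Pold1 and Pole2) and in 2.25% of 32851 promoters, or 4.06% of the 11605 promoters of protein-coding genes tested in RNA. It also stood in 8 of 31 promoters of the further subunits and fork genes listed below, so it was not particular to the members. CCAAT stood in 4 of 8 (Pcna, Prim1, Pola1 and Pold2) and in 37.4% of all promoters, and TTTGAA in 1 of 8 (the second Pold2 start) and 17.9%. CCAAT is not contained in the E2F-type words. The 150 bases before the start are printed below for the 4 promoters with a CCAAT, 5′ to 3′ on the gene's strand, with E2F-type and CCAAT letters (or their reverse complement) in capitals.
Pcna, chr2:132253181-132253330, minus strand: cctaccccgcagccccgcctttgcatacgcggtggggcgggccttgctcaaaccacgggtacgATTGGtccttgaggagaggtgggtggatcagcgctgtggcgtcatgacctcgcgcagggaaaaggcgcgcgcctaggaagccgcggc
Pola1, chrX:93632156-93632305, minus strand: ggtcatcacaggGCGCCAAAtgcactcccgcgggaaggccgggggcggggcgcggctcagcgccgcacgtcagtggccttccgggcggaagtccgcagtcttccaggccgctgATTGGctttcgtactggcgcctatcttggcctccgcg
Prim1, chr10:128015065-128015214, plus strand: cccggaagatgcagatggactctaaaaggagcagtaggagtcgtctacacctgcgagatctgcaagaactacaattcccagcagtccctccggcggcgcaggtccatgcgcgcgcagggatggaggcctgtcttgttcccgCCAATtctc
Pold2, first start, chr11:5878257-5878406, minus strand: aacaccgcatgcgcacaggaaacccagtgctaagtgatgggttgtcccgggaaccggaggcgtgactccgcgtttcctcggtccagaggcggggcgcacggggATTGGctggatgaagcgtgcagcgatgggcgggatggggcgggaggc

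In Pold1 and Pole2 the E2F-type word lay just after the start, and only the bases around it are printed, with the word in capitals.
Pold1, chr7:44548766-44548784, minus strand: atcttgtgGCGGGAAAagc
Pole2, chr12:69228165-69228188, minus strand: cggcggtgGCGCCAAAtcgcgaac
A match is a description of letters and not evidence that a factor binds there.

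The first comparison, shElp3 against shControl in total RNA, asks whether the replication transcripts differed in abundance. The value of each of the 10 genes was lower in shElp3, at 20.5 to 57.4% of control, and 3 of the 10 were called lower (Pold1, Pcna and Pola1; edgeR adjusted p under 0.05 over all genes), where 0.921% of 12274 genes tested were. The median log2 difference of the 10 was -1.43, against -0.02 over all genes tested. In 9 of the 10 every shElp3 library lay below every control library, which held for 9.56% of genes tested, and Pola2 was the exception. The letters were taken to pair the RNA libraries by the correlation of their deviations from group means. That set apart only A, since B and C correlated across letters (0.709 and 0.599) as well as within them (0.451 and 0.603). With the letter as a block 10 of 10 were called lower, where 6.75% of genes were. In letters B and C alone 10 of 10 were called (10.5% of genes), and DESeq2 on all 6 libraries called 9 of 10 (3.43% of genes), leaving out Pola2. Without control A edgeR called 8 of 10 (3.01% of genes). Without control B, control C, or shElp3 A, B or C it called 0 of 10, and 0 genes in the whole table. In bulk RNA fewer cells in S phase and less of these mRNAs per cell cannot be told apart.

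Pola1 (chromosome X, 93304766 to 93632387), the catalytic subunit of polymerase alpha, measured 46.2, 71.4 and 57.7 CPM in control RNA A, B and C and 21.2, 22.5 and 22.7 CPM in shElp3 RNA. The shElp3 values were tightly grouped and all below the lowest control, and the gene fell by 1.40 on the log2 scale (SE 0.24, edgeR adjusted p = 0.044). Its regulatory partner Pola2 (chromosome 19, 5940543 to 5964238) measured 9.32, 21.1 and 19.7 CPM in control and 6.48, 10.1 and 9.15 CPM in shElp3 RNA. Control A overlapped the shElp3 range there, and the log2 difference was -0.96 (SE 0.37, edgeR adjusted p = 0.338; -0.90 and 0.022 when blocked by letter).

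Prim1 (chromosome 10, 128015215 to 128030030), the catalytic primase subunit, measured 34.8, 25.8 and 20.3 CPM in control and 12.7, 7.37 and 10.7 CPM in shElp3 RNA, and only for Prim1 and Pold2 among the 10 was control A the highest control RNA value. Its log2 difference was -1.39 (SE 0.31, edgeR adjusted p = 0.103; 0.00097 when blocked by letter). Prim2 (chromosome 1, 33453808 to 33669808), the large primase subunit, lay at 12.9 to 24.8 CPM in control and 8.67 to 9.78 in shElp3 RNA, a log2 difference of -1.13 (SE 0.30, edgeR adjusted p = 0.156; 0.0126 when blocked by letter).

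Pold1 (chromosome 7, 44532744 to 44548815), the catalytic and proofreading subunit of polymerase delta, gave the lowest adjusted p of the 10 in RNA. It measured 49.8, 77.2 and 67.2 CPM in control and 14.5, 16.6 and 16.1 CPM in shElp3 RNA, and fell by 2.04 on the log2 scale (SE 0.25, edgeR adjusted p = 0.019), to 24.3% of control. Pold2 (chromosome 11, 5872180 to 5878256), the accessory subunit that binds Pold1, measured 60.6, 50.6 and 49.1 CPM in control and 33.4, 31.5 and 27.1 CPM in shElp3 RNA. The groups did not overlap, but the difference was the smallest of the 10 (log2 difference -0.80, SE 0.21, edgeR adjusted p = 0.157; 0.0084 when blocked by letter), leaving 57.4% of control.

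Pole (chromosome 5, 110286319 to 110337468), the catalytic subunit of polymerase epsilon, had the lowest log2 difference of the 10 and the widest spread. It measured 15.1 CPM in control RNA A against 67.3 and 51.5 in B and C, and 4.68, 10.7 and 12.2 CPM in shElp3 RNA. The log2 difference was -2.29 (SE 0.60, edgeR adjusted p = 0.155), and with the letter block it was -2.15 (SE 0.22, edgeR adjusted p = 1.5e-05). Pole2 (chromosome 12, 69201773 to 69228205), its second subunit, lay at 8.80 to 16.04 CPM in control and 3.30 to 4.18 in shElp3 RNA (log2 difference -1.70, SE 0.31, edgeR adjusted p = 0.059; 0.000997 when blocked by letter).

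Pcna (chromosome 2, 132249286 to 132253180) measured 213.7, 215.5 and 180.7 CPM in control RNA and 83.8, 67.4 and 69.7 CPM in shElp3 RNA. Control A did not stand apart for this gene, and Pcna fell by 1.47 on the log2 scale (SE 0.21, edgeR adjusted p = 0.026), to 36.2% of control. Gins1 (chromosome 2, 150909556 to 150931280) rested on the fewest reads, 67 to 85 in control and 14 to 43 in shElp3 RNA. Its 6.34, 7.79 and 6.18 CPM in control and 2.58, 1.66 and 2.60 CPM in shElp3 did not overlap (log2 difference -1.55, SE 0.30, edgeR adjusted p = 0.074; 0.0060 when blocked by letter).

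**Figure D1:**
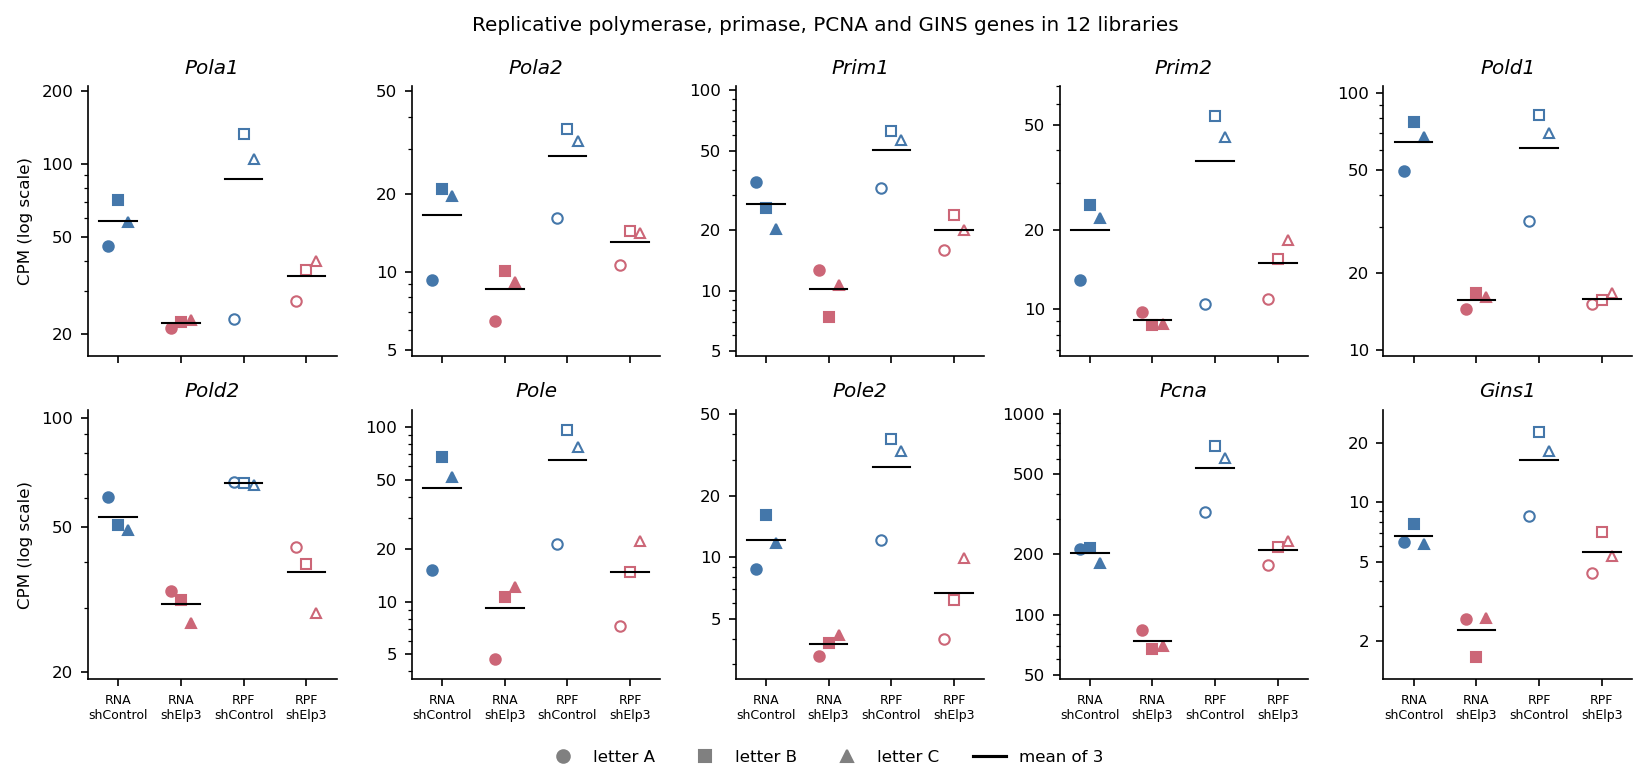
CPM (vertical axes, log scale) of the 10 genes in each of 12 libraries by fraction and shRNA, with the letter as symbol and the mean of 3 as a bar; filled symbols are total RNA and open symbols are footprints. In RNA the shElp3 libraries lie below the control libraries for 9 of 10 genes, and control A lies lowest among control footprints for 9 of 10, Pold2 being level at 66.5 CPM.

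Footprints were compared in the same way to ask whether fewer ribosomes were found on these mRNAs relative to other mRNAs. Of the 10 genes 4 were called lower (Prim1, Pold1, Pold2 and Pcna; edgeR adjusted p under 0.05), where 3.06% of 11343 genes tested were, and the 10 lay at 22.8 to 57.0% of control. The median log2 difference was -1.35, against -0.01 over all genes tested. In 7 of the 10 every shElp3 library lay below every control library, which held for 15.3% of genes tested. Pola1, Prim2 and Pole overlapped, in each case through control A. With letters B and C only, 10 of 10 were called lower (12.2% of genes), DESeq2 on all 6 libraries called 8 of 10 (6.88% of genes), and edgeR without control A called 10 of 10 (14% of genes). It called 0 of 10 without control B (0.365% of genes) or control C (0.425%), and 0 of 10 and 0 genes in all without shElp3 A, B or C.

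Pcna footprints numbered 323.5, 690.5 and 605.4 CPM in control A, B and C and 176.1, 218.2 and 232.9 CPM in shElp3, and fell by 1.37 on the log2 scale (SE 0.27, edgeR adjusted p = 0.038). Even the lowest control library, A, held more Pcna footprints than any shElp3 library. Those of Pold1 measured 31.7, 82.0 and 69.7 CPM in control and 15.1, 15.7 and 16.7 CPM in shElp3, a fall of 1.95 on the log2 scale (SE 0.33, edgeR adjusted p = 0.027). Pold2 was the steadiest control value of the 10, at 66.5, 65.9 and 65.2 CPM, and measured 44.1, 39.7 and 29.0 CPM in shElp3. It fell by 0.81 on the log2 scale (SE 0.18, edgeR adjusted p = 0.044), again the smallest difference of the 10.

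Prim1 footprints measured 32.6, 62.5 and 56.4 CPM in control and 16.1, 24.0 and 20.1 CPM in shElp3, and fell by 1.33 on the log2 scale (SE 0.27, edgeR adjusted p = 0.038). Pola1 showed the largest split among control libraries, with 23.0 CPM in A against 133.6 and 104.7 in B and C, and 27.2, 36.6 and 40.0 CPM in shElp3. Control A thus lay below all 3 shElp3 libraries, and the log2 difference of -1.33 (SE 0.54) was not called (edgeR adjusted p = 0.189; with B and C only -1.64, SE 0.15, adjusted p = 2.7e-05). Prim2 was alike, at 10.5 CPM in control A, 54.0 and 45.1 in B and C, and 10.9 to 18.2 in shElp3 (log2 difference -1.30, SE 0.52, edgeR adjusted p = 0.187).

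Both polymerase epsilon subunits had differences near -2 that were not called. Pole measured 21.3, 96.6 and 76.7 CPM in control and 7.28, 14.8 and 22.2 CPM in shElp3 footprints, where shElp3 C exceeded control A (log2 difference -2.13, SE 0.57, edgeR adjusted p = 0.078). Pole2 measured 12.2, 37.8 and 33.2 CPM in control and 4.02, 6.18 and 9.98 in shElp3 without overlap (log2 difference -2.04, SE 0.47, edgeR adjusted p = 0.052). Gins1 lay at 8.54 to 22.6 CPM in control and 4.39 to 7.11 in shElp3 (log2 difference -1.55, SE 0.37, edgeR adjusted p = 0.058), and Pola2 at 16.3 to 35.7 and 10.7 to 14.4 (-1.10, SE 0.30, 0.080).

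**Figure D2:**
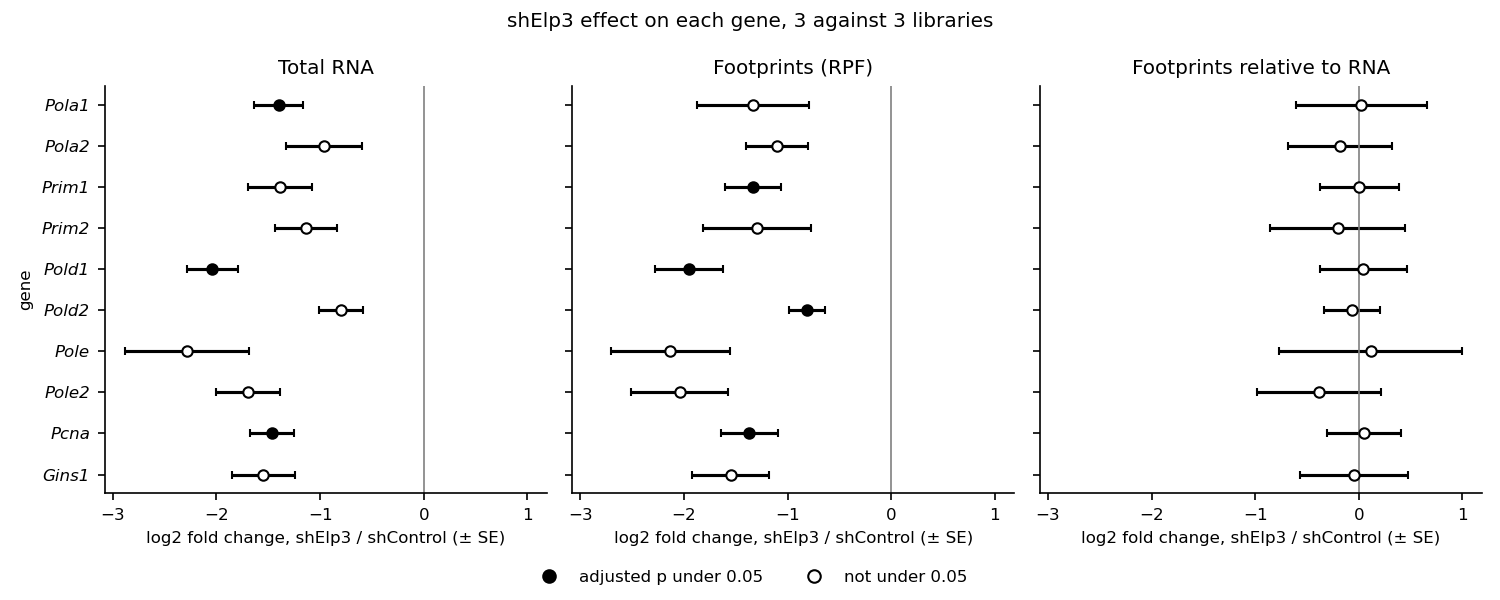
The log2 difference of shElp3 over shControl (horizontal axes, with SE) for each gene in total RNA, in footprints and in footprints relative to RNA, from 3 against 3 libraries; filled points have an edgeR adjusted p under 0.05. Values run from -2.29 to -0.80 in RNA and from -2.13 to -0.81 in footprints, and lie between -0.39 and 0.11 in their ratio.

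The difference was also taken within each letter, as the log2 ratio of the shElp3 to the shControl library (with 0.5 CPM added to each). In RNA all 10 ratios were below 0 in each letter, with medians of -1.22 in A, -1.71 in B and -1.31 in C, where the medians over all genes tested were 0.01, 0 and 0. In footprints 8 of 10 were below 0 in A and 10 of 10 in B and C, with medians of -0.89, -1.71 and -1.43. The exceptions in A were Pola1 at 0.24 and Prim2 at 0.05. Pole (-1.59, -2.60 and -2.04 in RNA) and Pold1 (-1.75, -2.18 and -2.03) were the lowest in RNA within each letter.

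Among control libraries, letter A held 19.3 to 54.9% of the mean of B and C for the footprints of 9 of the 10 genes, while Pold2 was level (66.5 CPM against a mean of 65.6). For RNA the range was 25.5 to 151%, with Prim1, Pold2 and Pcna above 100%. The share of all genes with such low footprints in control A was not computed, and low values were not particular to the 10. Footprints of Fen1 measured 8.82 CPM in control A against 62.6 and 63.9 in B and C, and those of Mlana 115 against 792.8 and 605.2. Other genes went the other way, such as Pole3 (61.5 against 36.2 and 43.4). The part of this difference between control libraries in the size of the shElp3 effect was not tested, and the values without letter A are given above.

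**Figure D3:**
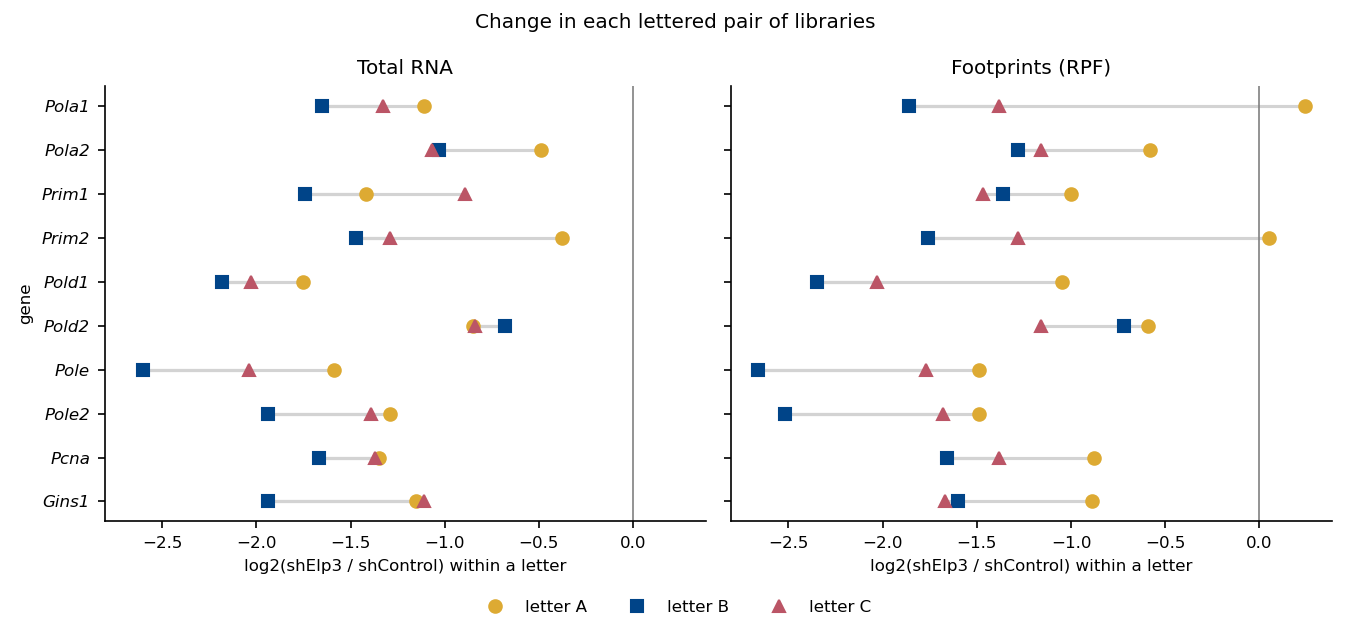
The log2 ratio of shElp3 to shControl CPM (horizontal axes) within letters A, B and C for each gene, in total RNA and in footprints. All 30 RNA values lie below 0, and in footprints those of Pola1 (0.24) and Prim2 (0.05) in letter A lie above it.

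The effect of shElp3 on translational efficiency (TE), the ratio of footprints to RNA, shows whether ribosome load per mRNA differed relative to other mRNAs. A change shared by all mRNAs would not be seen after scaling. None of the 10 genes was called (0 of 10, edgeR adjusted p = 1 for each; 0 of 10 at an unadjusted p under 0.05), and 0% of the 11238 genes tested were, with or without the letter block. At an unadjusted p under 0.05 there were 62 genes in the table, and DESeq2 called 0 as well. The log2 changes ran from -0.39 (Pole2) to 0.11 (Pole), with a median of -0.02 against -0.03 over all genes tested.

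These values do not show that TE was alike. The 95% intervals from the edgeR fit without the letter were -0.65 to 0.52 for Pold2, -0.72 to 0.82 for Pcna, -0.83 to 0.84 for Prim1 and -1.81 to 2.03 for Pole. With the letter block they were -0.57 to 0.40 for Pold2, -0.43 to 0.65 for Pcna, -0.57 to 0.63 for Prim1 and -0.70 to 0.83 for Pole. Control A lay below control B and C in this ratio for 9 of 10 genes, Pola2 being the exception. The median ratio over all genes was -0.04, -0.01 and -0.03 in control A, B and C. The share of all genes with control A lowest was not computed. The log2 ratio of footprints to RNA of Pola1 was -0.82 in control A against 1.04 and 0.97 in control B and C, and 0.47, 0.76 and 0.90 in shElp3. With letters B and C only the changes ran from -0.36 to 0.12, and 9 of 10 lay below 0, with SE of 0.18 to 0.41. Pola2 was the only gene of the 10 whose shElp3 ratios (0.78, 0.56 and 0.70) all lay below its control ratios (0.94, 0.88 and 0.81). The share of all genes with such a separation was not computed, so nothing is drawn from it. The fitted change of Pola2 was -0.18 (SE 0.50) and was not called.

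Footprints and RNA were then compared within control cells, to place these mRNAs among all others in ribosome load. Footprints fall mostly on coding sequence while RNA reads cover the whole mRNA, so the ratio also depends on how much of an mRNA is coding. Of the 10 genes 3 were called higher in footprints (Pcna, Gins1 and Prim1), where 8.86% of 11747 genes were, and the median of the 10 was 0.99 against -0.05 over all genes. Control RNA and RPF libraries share letters in their labels. Their deviations from group means correlated at 0.480, 0.502 and 0.408 within A, B and C, and at 0.327 and 0.297 between B and C. With the letter as a block 5 of 10 were called (Pcna, Gins1, Pole2, Pola2 and Pole, where 15.7% of genes were). With B and C only it was 9 of 10, Pold1 being left out, where 33.7% of genes were called higher. Leaving out control RNA A gave 4 of 10 (20.9% of genes called higher), and leaving out control RPF A gave 6 of 10 (9.01%). Leaving out control RNA B or C gave 0 of 10 (2.28% and 2.68% of genes), and so did leaving out control RPF B or C (2.3% and 1.99%).

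Pcna stood at the 98.0th percentile of all genes in this ratio (log2 ratio 1.58, SE 0.33, edgeR adjusted p = 0.014). Its log2 ratio was 0.77 in control A and 1.82 and 1.86 in B and C, and 1.18, 1.76 and 1.83 in shElp3. Gins1 (1.46, SE 0.39, edgeR adjusted p = 0.032) stood at the 97.1st and Prim1 (1.08, SE 0.33, edgeR adjusted p = 0.049; 0.067 with the block) at the 91.5th percentile. At the other end Pold1 was near the middle of all genes, with a log2 ratio of 0.09 (SE 0.37, 95% interval -0.77 to 0.96) and the 56.0th percentile. Pole gave nearly the same ratio in the 3 control letters (0.65, 0.66 and 0.68), while control A held 25.5% of the mean of B and C in its RNA and 24.6% in its footprints.

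**Figure D4:**
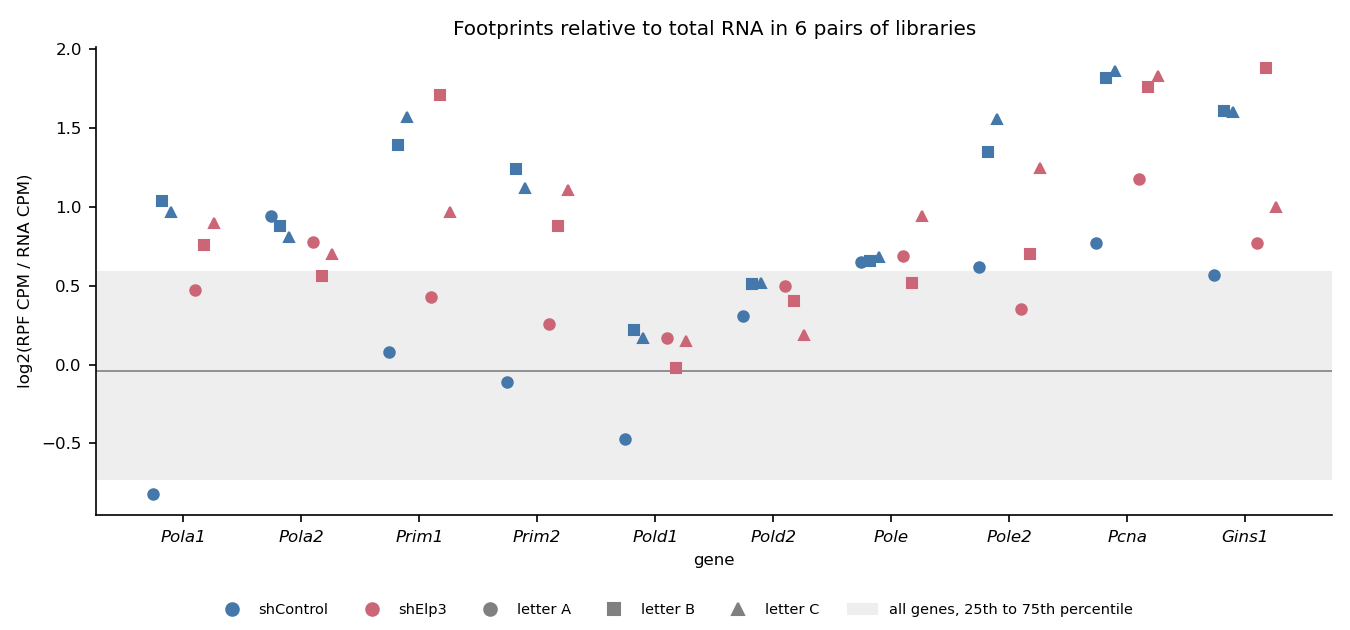
The log2 ratio of RPF to RNA CPM (vertical axis) of each gene in the 6 pairs of RNA and RPF libraries, coloured by shRNA with the letter as symbol; the grey band spans the 25th to 75th percentile of all genes, and the line their median, averaged over pairs. Pcna reaches 1.86 and Pold1 does not exceed 0.22, and the control A point lies lowest of its group for 9 of 10 genes, Pola2 being the exception.

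Ratios between subunits were also examined. In such a ratio within a library the library size cancels, while its level still depends on the length of both genes. The counts of Pold1 relative to Pold2 were 0.822 to 1.53 in control RNA and 0.433 to 0.593 in shElp3 RNA, without overlap, while in footprints they overlapped (0.476 to 1.24 against 0.342 to 0.578, exact permutation p = 0.2, adjusted 0.4). Pold1 relative to Pola1 was 1.08 to 1.16 in control RNA and 0.683 to 0.741 in shElp3 RNA, and 0.613 to 1.38 against 0.418 to 0.553 in footprints, again without overlap. Pole relative to Pola1 separated in footprints (0.723 to 0.927 against 0.267 to 0.555) and overlapped in RNA. Each of the 4 ratios without overlap gave an exact two-sided permutation p of 0.1, the smallest that 3 against 3 libraries allow, and 0.3 after adjustment over the 12 ratios compared. Pole over Pole2, Prim1 over Prim2 and Pola1 over Pola2 overlapped in both fractions. These comparisons did not use the letter. Within each letter the RNA ratio was lower in shElp3 for Pole over Pole2, Pola1 over Pola2 and Pole over Pola1. Pole over Pole2 was 1.72, 4.19 and 4.37 in control RNA A, B and C and 1.42, 2.81 and 2.91 in shElp3. Prim1 over Prim2 in RNA rose in C (0.917 to 1.23). In footprints Pola1 over Pola2 rose in A (1.41 to 2.55), as did Pole over Pole2 (1.75 to 1.81), and both fell in B and C. Prim1 over Prim2 rose in footprints in B (1.16 to 1.54), while Pole over Pola1 fell in each letter. The ratios within a letter were not tested.

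Other genes of the replication machinery were taken from lists made by function, but drawn up with earlier results of these data known. Over all genes tested, 0.921% were called lower in RNA and 3.06% in footprints. Of 7 further subunits of polymerases delta and epsilon and of GINS (Pold3, Pold4, Pole3, Pole4, Gins2, Gins3 and Gins4), 0 were called in RNA, with 7 of 7 values below 0 and a median of -0.77. With the letter block, where 6.75% of all genes were called lower, 3 fell (Gins4, Gins2 and Pold3). With B and C only (10.5% of genes) 3 fell. The largest differences without the block were in Gins2 (-1.50) and Gins4 (-1.03). In footprints 1 fell, Gins4, from a mean of 44.7 ± 7.75 CPM to 24.2 ± 2.69 (SD over n = 3 each; log2 difference -0.88, SE 0.18, edgeR adjusted p = 0.038), and the median was -0.57.

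Of 26 genes for fork proteins, the clamp loader and Okazaki fragment processing, 4 were called in RNA, all lower, with 26 of 26 values below 0 and a median of -1.12. They were Cdc45 (-2.16), the GINS and MCM partner; Rpa2 (-1.84), of the single-strand binding protein; and Rfc4 (-1.53) and Rfc5 (-1.34), of the clamp loader that places PCNA on DNA. With the letter block 22 of 26 were called lower (6.75% of genes), and with B and C only 23 (10.5% of genes). Like all RNA calls, these 4 were not made without control B, control C, or shElp3 A, B or C (0 genes called in each case). In footprints 3 fell, Rpa2 (-1.65), Cdc45 (-2.32) and the DNA ligase Lig1 (-2.00), with 25 of 26 below 0 and a median of -1.26. With B and C only 24 fell (12.2% of genes).

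Of 14 DNA polymerases outside the replicative set and their partners, which serve translesion synthesis, repair and mitochondria, 0 were called in RNA, 7 values lay below 0, and the median was -0.01. The largest differences were in Polq (-2.37, theta-mediated end joining) and Poln (-1.43). With the letter block Polq, Polh and Poln fell and 0 rose (6.75% of genes lower, 5.46% higher). With B and C only 2 were called lower and 1 higher in RNA (10.5% and 8.88% of genes). The counts were the same in footprints (12.2% and 9.41% of genes). In footprints 1 fell, Polh, the translesion polymerase eta, from a mean of 61.2 ± 4.04 CPM to 29.9 ± 2.26 (SD over n = 3 each; log2 difference -1.03, SE 0.14, edgeR adjusted p = 0.016), and the median was 0.14. In TE 0 genes of these 3 lists were called, with a lowest value of -0.58 (Primpol) and a highest of 0.57 (Polb). In control footprints against RNA, where 8.86% of all genes were called higher and 15.1% lower, 0 of the 7 further subunits were called. Of the 26 fork genes 2 were higher (Rpa2 and Rnaseh2b) and 1 lower (Chtf8), and of the 14 other polymerases 5 were lower (Polq, Rev3l, Rev1, Poll and Polg). With the letter block (15.7% of genes higher, 20.2% lower) 1 of the 7 was higher (Pole3), 5 of the 26 were higher and 1 lower, and 2 of the 14 were higher and 6 lower.

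**Figure D5:**
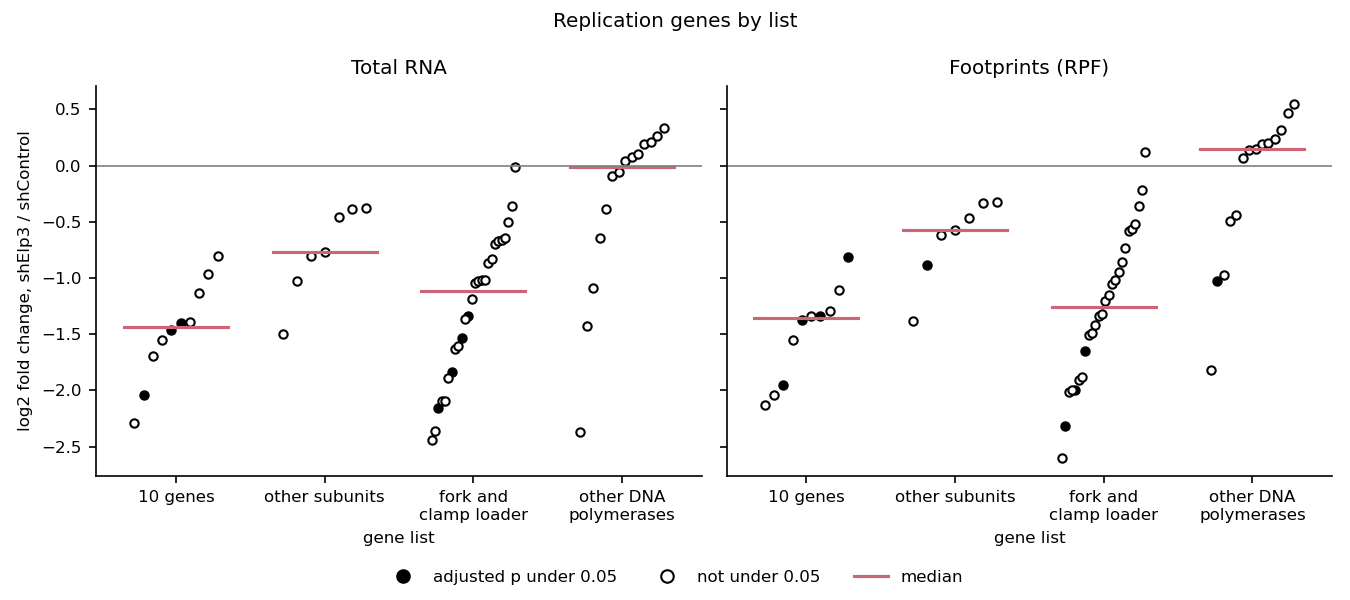
The log2 difference of shElp3 over shControl (vertical axis) of every gene of 4 lists in total RNA and in footprints, sorted within a list; filled points have an edgeR adjusted p under 0.05 and the line is the median. Medians in RNA are -1.43 for the 10 genes, -0.77 for other subunits, -1.12 for fork genes and -0.01 for other polymerases.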

How the data were processed

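The submitters' processing notes name TopHat2 2.1.1, Bowtie, HTSeq and bcl2fastq, and the build mm10. The library kit was TruSeq Ribo Profile, per the labels' protocols. The deposited table holds raw counts of reads per gene symbol for 12 libraries. The annotation, strand setting and counted feature were not given in the sources used here, so reads of overlapping or antisense genes may be mixed. Of 24421 symbols 23204 were matched in RefSeq.

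Genes were kept with filterByExpr (minimum count 10; for TE in both fractions), scaled by TMM, and fitted by quasi-likelihood in edgeR 4.0.16 under R 4.3.3 (functions glmQLFit, glmQLFTest), Benjamini-Hochberg adjusted over all genes tested, threshold 0.05. TE was the interaction of fraction and shRNA over 12 libraries. SE is the log2 fold change divided by the root of F, and 95% intervals use the fit's degrees of freedom. CPM values were computed by edgeR with TMM factors within a fraction. The functions were tested on simulated data that held no difference between letters. That test does not show how the fits behave when letter A stands apart. Alternatives were DESeq2 1.42.0, RLE factors, other filters, replicate blocks, leaving out each library, letters B and C only and, for TE, limma 3.58.1 voom.

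Same-letter deviations from group means correlated over genes at 0.819, 0.451 and 0.603 (A, B, C) in RNA and 0.787, 0.487 and 0.513 in TE, so the letters were taken to pair these, although B and C also correlated across letters (0.709 and 0.599 in RNA). In RPF they were 0.341, -0.109 and 0.221, so letters were not taken to pair RPF libraries.

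The members and lists were chosen with earlier results of these data known. All 10 members are named, with Elp3, up to 4 called genes of each other list and comparison by adjusted p (5 in 1 case, named after their values were seen) and, where none was called, up to 2 with the largest change. A planned count of lysine, glutamate and glutamine residues and of footprints per coding length was not run, as protein sequences were not used here. No 2 libraries of a group agreed within sampling noise (chi-square per degree of freedom 8.25 or more).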

Additional observations from a re-analysis of the deposited data

How the results depend on the processing

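Direction held for all 10 genes in RNA and footprints under every alternative run, while calls depended on letter A and on single libraries. In RNA the 3 called members and 140 called genes became 9 and 652 with DESeq2, 10 and 1499 with the replicate block, and 10 and 2377 with letters B and C only; leaving out single libraries gave 0 to 8 members and 0 to 540 genes. In footprints the 4 members became 8 with DESeq2, 8 with no count filter, 8 with the replicate block and 10 with letters B and C only, and the 548 genes became 1308 with DESeq2 and 2477 with B and C only; leaving out single libraries gave 0 to 10 members and 0 to 2856 genes. In footprints the letters share only a label: with the block 666 genes were called. For control footprints against RNA the 3 members became 5 with the replicate block and 9 with B and C only, and the 2815 genes became 8326 with B and C only; single libraries left out gave 0 to 6 members and 841 to 5396 genes. Pold1 there ranged from -0.168 to 0.410, and it was below 0 without control RNA A or control RPF B. In TE 0 members were called under any alternative, and 2 genes in all with B and C only; neither block changed a call. TE values near 0 changed sign: Gins1 became 0.014 with a block for each pair of RNA and RPF libraries, and with B and C only Pola1 became -0.145, Prim1 -0.127, Pold1 -0.105 and Pcna -0.012. Leaving out single libraries, TE ran from -0.422 to 0.480 for Pola1, -0.447 to 0.113 for Pola2, -0.221 to 0.243 for Prim1, -0.635 to 0.195 for Prim2, -0.259 to 0.320 for Pold1, -0.193 to 0.096 for Pold2, -0.312 to 0.533 for Pole, -0.206 to 0.273 for Pcna and -0.348 to 0.253 for Gins1. The cause of these shifts was not tested. Low counts limit Gins1 and Pole2 in particular.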
